A study of Mus musculus with 12 samples.

Results

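The 10 core circadian clock genes Arntl, Clock, Npas2, Per1, Per2, Per3, Cry1, Cry2, Nr1d1 and Nr1d2 were read by their symbols from a count table of 43346 genes. RNA from the quadriceps, the thigh muscle that extends the knee, was sequenced in 12 libraries of C57BL/6 mice, 4 in each of 3 groups. The D+Q group was 24 months old and had received dasatinib, a tyrosine kinase inhibitor, at 5 mg/kg together with quercetin, a plant flavonoid, at 50 mg/kg. The old vehicle group was also 24 months old and had received the solvent alone. In both old groups gavage began at 20 months of age and was given on 3 days of each 2-week cycle. The young group was 6 months old, and the labels state no gavage for it. The hour at which tissue was collected is not given in the sources used here, and no label states whether every library came from a mouse of its own, so the p-values reflect only how far these libraries differ, which may be technical.

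The clock is a feedback loop of transcription. ARNTL (also called BMAL1) pairs with CLOCK or its paralogue NPAS2, binds E-box elements and activates the Per, Cry and Nr1d genes. PER and CRY proteins then repress that pair, while the nuclear receptors NR1D1 and NR1D2 (REV-ERB alpha and beta) repress Arntl through ROR elements, which the ROR receptors activate. In mouse peripheral tissues, skeletal muscle among them, Arntl, Clock, Npas2 and Cry1 are high around the end of the night, and Nr1d1, Nr1d2, Per1, Per2, Per3 and Cry2 are high from midday into the early night. These are called the dawn-phase genes (4) and the E-box-phase genes (6) here.

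Promoter sequences are shown for 5 members because they hold the elements through which the loop acts. They are RefSeq windows of mouse build GRCm38.p6 reaching 250 bases upstream and 50 downstream of a transcript start, printed 5′ to 3′ along the gene, and capitals mark the motifs that were searched on both strands. These motifs were the E-box CACGTG, the D-box TTATGNAA, the cAMP response element TGACGTCA and the ROR element core TAGGTCA. The E-prime-box CACGTT was searched as well, and its matches here lie on the other strand.
Arntl (chr7:113207261-113207560, plus strand): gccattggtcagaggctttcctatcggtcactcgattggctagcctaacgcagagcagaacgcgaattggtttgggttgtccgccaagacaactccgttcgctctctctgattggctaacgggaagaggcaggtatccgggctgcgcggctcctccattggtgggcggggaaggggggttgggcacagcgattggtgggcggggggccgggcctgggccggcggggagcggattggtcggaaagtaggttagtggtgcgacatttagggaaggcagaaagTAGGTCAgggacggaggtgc
Cry1 (chr10:85185005-85185304, minus strand): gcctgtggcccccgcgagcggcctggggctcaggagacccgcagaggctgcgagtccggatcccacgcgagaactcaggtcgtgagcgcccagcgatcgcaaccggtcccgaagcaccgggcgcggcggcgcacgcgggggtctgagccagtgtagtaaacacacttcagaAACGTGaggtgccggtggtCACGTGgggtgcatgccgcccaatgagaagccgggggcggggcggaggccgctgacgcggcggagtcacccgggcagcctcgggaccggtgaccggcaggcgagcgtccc
Per1 (chr11:69098699-69098998, plus strand): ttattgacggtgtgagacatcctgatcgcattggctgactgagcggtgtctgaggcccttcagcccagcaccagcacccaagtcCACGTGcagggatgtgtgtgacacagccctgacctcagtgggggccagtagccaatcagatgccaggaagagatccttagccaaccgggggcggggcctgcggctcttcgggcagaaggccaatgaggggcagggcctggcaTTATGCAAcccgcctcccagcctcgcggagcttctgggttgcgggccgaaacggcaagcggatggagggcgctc
Per3 (chr4:151044616-151044915, minus strand): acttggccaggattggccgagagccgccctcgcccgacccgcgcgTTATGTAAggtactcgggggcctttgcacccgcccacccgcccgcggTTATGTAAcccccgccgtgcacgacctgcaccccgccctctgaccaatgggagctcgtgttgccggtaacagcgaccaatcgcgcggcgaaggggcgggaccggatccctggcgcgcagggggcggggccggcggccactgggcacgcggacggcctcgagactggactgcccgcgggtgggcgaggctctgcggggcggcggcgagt
Cry2 (chr2:92434020-92434319, minus strand): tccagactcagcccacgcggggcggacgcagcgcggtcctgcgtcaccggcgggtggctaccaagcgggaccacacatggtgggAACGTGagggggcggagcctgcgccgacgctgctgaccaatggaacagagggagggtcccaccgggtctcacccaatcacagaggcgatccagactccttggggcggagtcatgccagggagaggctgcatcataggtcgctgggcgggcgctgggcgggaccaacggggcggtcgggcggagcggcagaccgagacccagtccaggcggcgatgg

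The Arntl window held 1 ROR core, whose first base was base 281 of the window and so downstream of the start. Cry1 held an E-box that began 60 bases upstream of the start and an E-prime-box that began 79 bases upstream. Per1 held an E-box that began 166 bases upstream and a D-box that began 24 bases upstream, and Per3 held 2 D-boxes that began 205 and 158 bases upstream. Cry2 and Nr1d1 each held an E-prime-box, which began 166 and 28 bases upstream of the start in that order. No cAMP response element was found in any window of the members, and no marked motifs overlapped. Of 32851 windows of all genes in the table, 7.15% held the E-box, 4.68% the E-prime-box, 3.38% the D-box, 1.79% the cAMP response element and 2.61% the ROR core. The windows of Npas2, Clock and Nr1d2 held none of the 5 motifs. In all, 9 members had 13 windows. Per2 had no window in the reference used, so its promoter was not searched. A match describes the letters, not a bound site.

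Library totals ran from 43152512 to 45901603 reads in D+Q libraries, from 38109111 to 49792488 in old vehicle libraries and from 26715140 to 47818075 in young libraries. All 10 members passed the filter on low counts, as did 16146 genes in all. A member had between 69 reads (Npas2) and 9826 reads (Nr1d1) in a library. The 9 muscle fibre markers summed to between 79300 and 136000 CPM in each library, so that the libraries carried the markers of the labelled tissue. CPM are counts divided by the library total after TMM scaling, a correction for differences in composition. On the first principal component, which held 42.9% of the variance, young replicates 3 and 4 lay at one end (-47.5 and -72.5). Young replicate 2 lay at 22.6, away from the other young libraries. It also had the lowest mean correlation with its own group of the 12 libraries (0.971). Bulk RNA cannot tell fewer cells of a type from less RNA per cell.

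Per2, a repressor of ARNTL and its partner, and Cry2, which binds PER proteins in the repressor complex, rose in old vehicle muscle relative to young muscle. Per2 was 2.24-fold and Cry2 1.52-fold higher, and in both genes every old vehicle library lay above every young library. The other 8 members did not pass the test in that comparison. After D+Q no member passed it against old vehicle, and none passed it against young. Both comparisons with young share the young libraries, and both comparisons that involve old vehicle share those libraries, so the 3 are not independent.

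**Figure D1:**
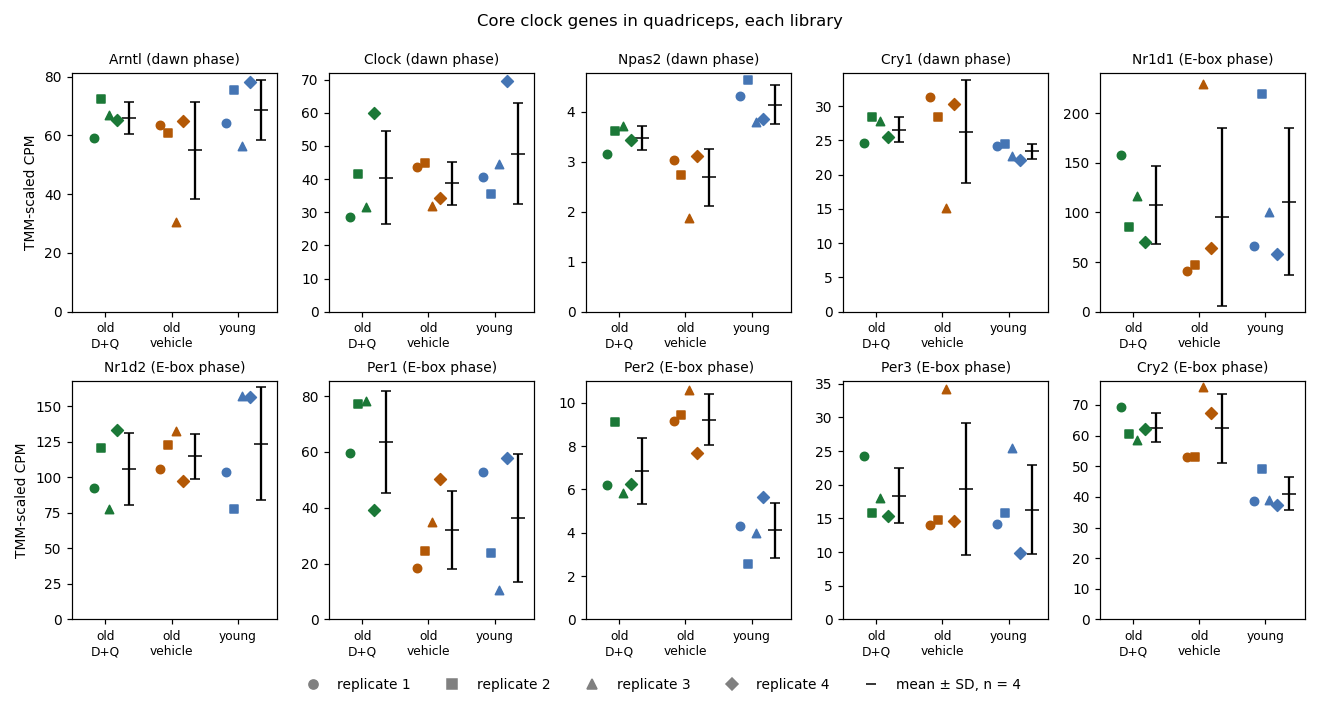
TMM-scaled CPM of the 10 clock genes (vertical axes, linear and starting at 0) in the D+Q, old vehicle and young libraries. Each symbol is 1 library, its shape gives the replicate number, and the black mark is the mean with the SD of 4 libraries. Per2 and Cry2 lie higher in all 4 old vehicle libraries than in any young library, and old vehicle replicate 3 has the lowest Arntl (30.4 CPM) and the highest Nr1d1 (229 CPM) of the 12.

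Per length, the loop's members spanned a wide range of levels. Over the 12 libraries the mean was 34 CPM per kilobase for Nr1d1, 22.9 for Nr1d2 and 21.7 for Arntl. It was 8.75 for Cry2, 8.44 for Cry1, 7.81 for Per1 and 5.65 for Clock, and 1.88 for Per3, 1.15 for Per2 and 0.718 for Npas2. Npas2, the CLOCK paralogue, was thus the lowest of the 10, below Clock itself. Neighbours in this order were often closer than their spread: in young muscle Cry2 had 6.49 ± 0.849, Per1 6.45 ± 4.05 and Clock 6.36 ± 2.04 CPM per kilobase (SD, n = 4). The order of Per2 and Npas2 differed between groups, with Per2 at 1.17 ± 0.260 and Npas2 at 0.726 ± 0.0518 in D+Q, Per2 at 1.57 ± 0.203 and Npas2 at 0.561 ± 0.119 in old vehicle, and Per2 at 0.703 ± 0.216 and Npas2 at 0.866 ± 0.0831 in young muscle.

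The members also differed in how far libraries of 1 group lay apart. The within-group SD of log2 CPM was 0.874 for Nr1d1 and 0.799 for Per1, wider than in 98.2% and 97.4% of tested genes. It was 0.514 for Per3, 0.394 for Clock, 0.370 for Nr1d2, 0.336 for both Arntl and Per2, 0.294 for Cry1, 0.217 for Npas2 and 0.192 for Cry2, against a median of 0.289 over all tested genes. Between the highest and the lowest of the 12 libraries, Per1 varied 7.34-fold and Nr1d1 5.57-fold, whereas Cry2 varied 2.03-fold. The members with the widest spread are the ones for which a difference between groups of 4 was estimated least precisely.

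Among the repressors of the PER and CRY family, Per2 (chr1:91415982-91459324, minus strand, mm10) had 9.14, 9.45, 10.6 and 7.70 CPM in old vehicle libraries, against 4.31, 2.56, 3.97 and 5.64 CPM in young libraries. The lowest old vehicle library was above the highest young one. Its log2 fold change was 1.16 ± 0.22 (SE, 95% interval 0.68 to 1.65), with an adjusted p of 0.0195 (edgeR's quasi-likelihood test, Benjamini-Hochberg over all tested genes). Leaving out young replicate 1 or 3 gave an adjusted p of 0.0574 or 0.0663, and leaving out old vehicle replicate 2 or 3 gave 0.0587 or 0.0662. Over all 8 such fits the log2 fold change stayed between 0.97 and 1.35.

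Cry2 (chr2:92403646-92434043, minus strand, mm10) had 52.9, 53.1, 75.7 and 67.5 CPM in old vehicle libraries and 38.6, 49.0, 39.1 and 37.3 CPM in young libraries. The groups did not overlap, although young replicate 2 came within 4 CPM of the lowest old vehicle library. The log2 fold change was 0.60 ± 0.14 (SE, 95% interval 0.31 to 0.90, edgeR adjusted p = 0.0422). The call was lost without young replicate 1, 3 or 4 (adjusted p 0.121, 0.126 and 0.116) and without old vehicle replicate 3 or 4 (0.124 and 0.122), with log2 fold changes of 0.50 to 0.68 over the 8 fits. In a fit of only these 2 groups its adjusted p was 0.0982.

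Of all 16146 tested genes, 300 (1.86%) were called between old vehicle and young, and 1512 (9.36%) had groups that did not overlap. Among the 10 members, 2 were called, both higher, 3 had an unadjusted p under 0.05, as 16% of all tested genes did, and 3 had groups that did not overlap, namely Per2, Cry2 and Npas2. The median log2 fold change was -0.15 over the members and -0.01 over all tested genes. Leaving out any 1 of the 8 libraries moved the count of 300 by more than 1.5 times, to between 146 (without old vehicle replicate 4) and 1022 (without young replicate 2). Without young replicate 1 or 3, or without old vehicle replicate 3, neither Per2 nor Cry2 nor any other member was called.

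Npas2 was the member of the activator arm whose groups stood apart. The gene lies on the plus strand at chr1:39193731-39363236 (mm10). It had 3.03, 2.74, 1.87 and 3.13 CPM in old vehicle libraries, against 4.31, 4.63, 3.79 and 3.85 CPM in young libraries, so that every old vehicle library was below every young one. Its log2 fold change was -0.62 ± 0.17 (SE, 95% interval -0.98 to -0.26) and did not pass the test (edgeR adjusted p = 0.0845). Of 19 other fits 1 called it, that of DESeq2, with an adjusted p of 0.0102, and limma-voom gave 0.0812. Over the edgeR fits that left out a library the adjusted p ran from 0.0687 to 0.18.

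The other activators had overlapping groups. Arntl had 63.6, 60.7, 30.4 and 64.9 CPM in old vehicle libraries and 64.0, 75.4, 56.5 and 78.3 CPM in young libraries. Its log2 fold change was -0.32 ± 0.20 (SE, 95% interval -0.76 to 0.12, edgeR adjusted p = 0.428), and without old vehicle replicate 3, the low library, it was -0.12. Clock ran from 31.8 to 44.9 CPM in old vehicle and from 35.4 to 69.7 CPM in young libraries, with a log2 fold change of -0.30 (95% interval -0.84 to 0.25).

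The remaining repressors did not pass the test either, and their intervals were wide. Per1, a PER gene that also answers to hormonal and cAMP signals, had 18.3, 24.5, 34.9 and 50.5 CPM in old vehicle libraries and 53.0, 23.8, 10.6 and 57.9 CPM in young libraries. Its log2 fold change was -0.18 ± 0.46 (SE, 95% interval -1.17 to 0.81). Per1 varied 2.75-fold within the old vehicle group and 5.44-fold within the young group, and the groups overlapped. Nr1d1 had 41.1, 47.0, 229 and 64.4 CPM in old vehicle libraries and 66.2, 219, 101 and 57.8 CPM in young libraries, with a log2 fold change of -0.22 ± 0.56 (SE, 95% interval -1.42 to 0.99). One library in each group, old vehicle replicate 3 and young replicate 2, was far above the other 3. Intervals for Nr1d2 (-0.60 to 0.39), Per3 (-0.46 to 0.96) and Cry1 (-0.22 to 0.56) also included 0. Nr1d1 lies tail to tail with Thra on the opposite strand and shares 263 annotated exon bases with it, and Thra had 33119 reads in all. Libraries were stranded but the strand setting of the counting is not given in the sources used here, so the Nr1d1 level is uncertain to that extent. Per3 lies within the span of Camta1 on the same strand and shares no annotated exon base with it.

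**Figure D2:**
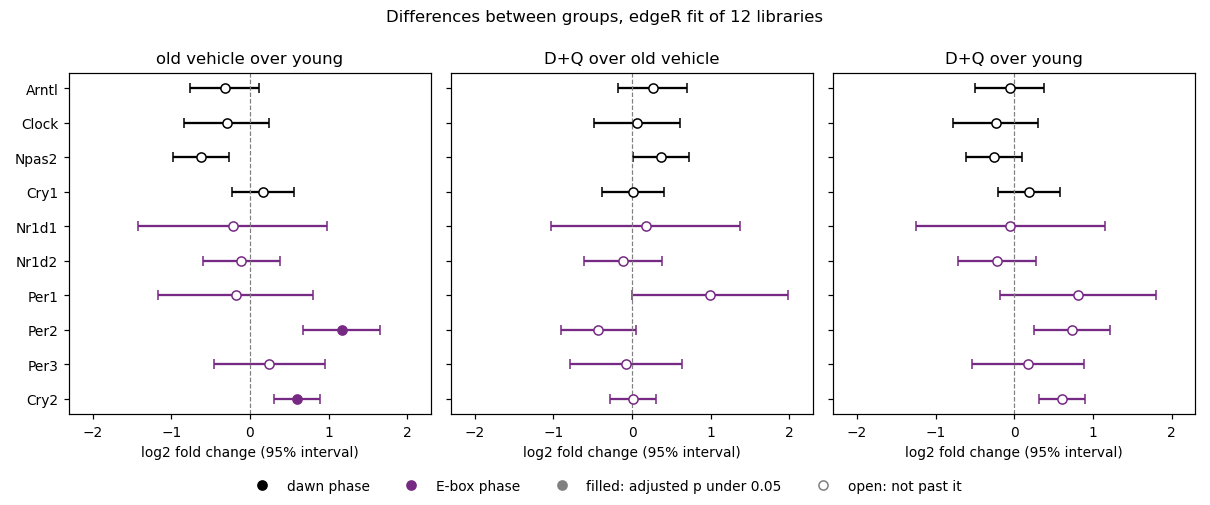
Log2 fold change (horizontal axis) with its 95% interval for each clock gene in the 3 comparisons, from 1 edgeR fit of 12 libraries; black marks dawn-phase and purple E-box-phase genes, and filled points have an adjusted p under 0.05. The filled points are Per2 (1.16) and Cry2 (0.60) in old vehicle over young, and the intervals of Nr1d1 and Per1 are the widest in all 3.

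After D+Q, no tested gene passed edgeR's threshold against old vehicle (0 of 16146, or 0%), while 350 had an unadjusted p under 0.05. DESeq2 called 11 genes and limma-voom 0 there. None of the 10 members was called by any of these tools, and 1 member, Npas2, had an unadjusted p under 0.05 and groups that did not overlap, as 2.17% of all tested genes did. The median log2 fold change was 0.04 over the members and 0.01 over all tested genes.

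Npas2 had 3.15, 3.62, 3.72 and 3.44 CPM in D+Q libraries, against 3.03, 2.74, 1.87 and 3.13 CPM in old vehicle libraries. The lowest D+Q library exceeded the highest old vehicle library by under 0.1 CPM. The log2 fold change was 0.37 ± 0.17 (SE, 95% interval 0.01 to 0.73, unadjusted p 0.0458, edgeR adjusted p = 1).

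Per1 had the largest estimated difference of the 10. It had 59.8, 77.1, 78.1 and 39.3 CPM in D+Q libraries, against 18.3, 24.5, 34.9 and 50.5 CPM in old vehicle libraries. D+Q replicates 1 to 3 were above every old vehicle library, and D+Q replicate 4 fell within their range. The log2 fold change was 0.99 ± 0.46 (SE, 95% interval -0.01 to 1.98, unadjusted p 0.0512, edgeR adjusted p = 1).

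Per2 and Cry2, the genes called between old vehicle and young, differed in their estimates after D+Q. Per2 had 6.20, 9.12, 5.83 and 6.25 CPM in D+Q libraries, against 9.14, 9.45, 10.6 and 7.70 CPM in old vehicle libraries, a log2 fold change of -0.43 ± 0.22 (SE, 95% interval -0.90 to 0.05, edgeR adjusted p = 1). D+Q replicates 1, 3 and 4 were below all old vehicle libraries and replicate 2 was among them. Cry2 had 69.5, 60.5, 58.5 and 62.0 CPM in D+Q libraries, all within the old vehicle range of 52.9 to 75.7 CPM, a log2 fold change of 0.01 ± 0.14 (SE, 95% interval -0.28 to 0.30). Whether the estimates for the 2 genes differ from each other was not tested.

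For the other 6 members the D+Q and old vehicle groups overlapped and the intervals included 0. Arntl ran from 59.0 to 72.4 CPM in D+Q libraries and from 30.4 to 64.9 CPM in old vehicle libraries (log2 fold change 0.26, 95% interval -0.18 to 0.70). Cry1 ran from 24.6 to 28.4 CPM in D+Q libraries and from 15.1 to 31.4 CPM in old vehicle libraries (0.01, -0.38 to 0.41). In both genes the low end of the old vehicle range was replicate 3. The estimate for Nr1d1 was 0.17 (95% interval -1.03 to 1.38), and it was 1.08 without old vehicle replicate 3 (adjusted p 0.999). Those for Clock, Per3 and Nr1d2 were 0.06, -0.08 and -0.11.

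Against young, 144 of all tested genes (0.892%) were called in D+Q muscle, and 6.69% had groups that did not overlap. None of the 10 members was called by edgeR or limma-voom, 2 had an unadjusted p under 0.05 (Per2 and Cry2), as 17.8% of all tested genes did, and DESeq2 called Cry2 (adjusted p = 0.0019). Per2, Cry1 and Cry2 were higher and Npas2 lower in every D+Q library than in any young library. Leaving out any 1 of these 8 libraries other than D+Q replicate 4 moved the count of 144 by more than 1.5 times, to between 44 (without young replicate 3) and 1935 (without young replicate 2).

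Cry2 had 69.5, 60.5, 58.5 and 62.0 CPM in D+Q libraries and 38.6, 49.0, 39.1 and 37.3 CPM in young libraries. Its log2 fold change was 0.61 ± 0.14 (SE, 95% interval 0.32 to 0.90), beside 0.60 for old vehicle over the same young libraries, and its edgeR adjusted p was 0.0575. It was under 0.05 with relative log expression scaling (0.0498), with library totals alone (0.0434) and without young replicate 2 (0.0164). Per2 had a log2 fold change of 0.74 ± 0.22 (SE, 95% interval 0.25 to 1.22, edgeR adjusted p = 0.154). For Cry1 it was 0.18 (95% interval -0.21 to 0.58), for Npas2 -0.26 (-0.61 to 0.10) and for Per1 0.81 (-0.19 to 1.80). Arntl, Clock, Per3, Nr1d1 and Nr1d2 had estimates of -0.06, -0.23, 0.17, -0.05 and -0.22, each with an interval that included 0.

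The phase groups were then compared. In old vehicle over young, 3 of the 4 dawn-phase genes had a negative and 1 (Cry1) a positive log2 fold change, with a median of -0.31, while the 6 E-box-phase genes divided evenly into 3 positive and 3 negative, with a median of 0.07. All 4 dawn-phase genes were positive in D+Q over old vehicle (median 0.16), and the E-box-phase genes again divided evenly into 3 and 3 (median -0.03). Against young, D+Q had 3 of 4 dawn-phase genes negative (median -0.15) and 4 of 6 E-box-phase genes positive (median 0.39). The E-box-phase signs were mixed in every comparison, so the estimates show no uniform opposite movement of the 2 phases. Most of these signs belong to estimates that did not pass the test, so they cannot show that such movement is absent. No phase group was tested as a whole.

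The mean log2 CPM of the E-box-phase genes minus that of the dawn-phase genes was 1.26, 0.88, 0.90 and 0.57 in D+Q libraries. It was 0.33, 0.57, 2.10 and 0.77 in old vehicle libraries and 0.43, 0.38, 0.45 and 0.29 in young libraries. The D+Q values were all above the young ones, and the old vehicle values, from 0.33 to 2.10, overlapped with both. Per1, Per2 and Cry2 are part of this quantity. They had the largest estimates in D+Q over young (0.81, 0.74 and 0.61), and none of them was called there by edgeR. The quantity is given as a description without a test.

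**Figure D3:**
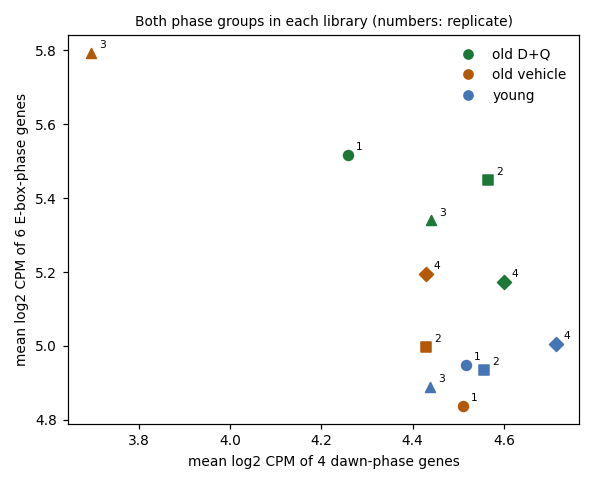
Mean log2 CPM of the 6 E-box-phase genes (vertical axis) against that of the 4 dawn-phase genes (horizontal axis) in each of 12 libraries, coloured by group and numbered by replicate. Old vehicle replicate 3 stands alone at the upper left, with 3.70 on the dawn axis and 5.79 on the E-box axis, and the 4 young libraries lie between 4.89 and 5.01 on the E-box axis.

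Within groups, the opposite movement of the phases was clearest in 1 library. In old vehicle replicate 3 all 4 dawn-phase genes were lower than the mean of the other old vehicle libraries, by 0.36 to 1.05 on the log2 scale, and all 6 E-box-phase genes were higher, by 0.28 to 2.20. Dbp, a D-box activator and direct target of the clock, had 71.6 CPM in that library and between 7.57 and 10.1 CPM in the other 3 of its group. Nfil3, the D-box repressor whose level runs opposite to Dbp in mouse tissues, had 17.0 CPM there and between 65.8 and 75.7 CPM in the other 3. Over all genes its mean correlation with its group was 0.987, where the 4 libraries of the group, itself included, ran from 0.987 to 0.989. On the first principal component it was the highest of its group, at 30.1. Old vehicle replicates 1, 2 and 4 lay at -1.87, -1.78 and 24.9 there. The time at which that tissue was taken is not given in the sources used here, and its part in these values was not tested.

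**Figure D4:**
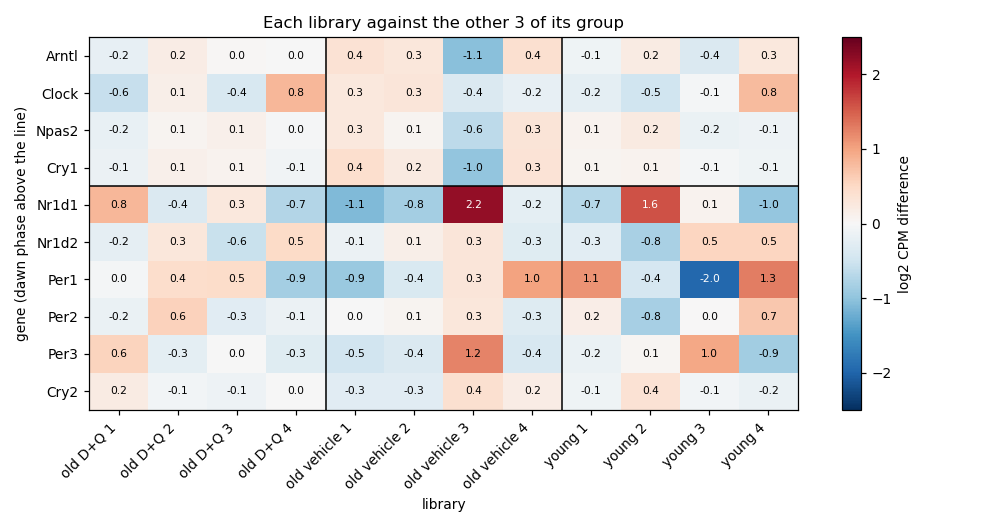
Log2 CPM of each clock gene (rows) in each library (columns) minus the mean of the other 3 libraries of its group; red is higher, blue lower, and the dawn-phase genes are above the line. Old vehicle replicate 3 is the column with 4 blue cells above the line and 6 red cells below it.

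No other library had all 4 dawn-phase genes on one side and all 6 E-box-phase genes on the other, except old vehicle replicate 1, in the reverse sense. There the dawn-phase genes were 0.25 to 0.42 higher and the E-box-phase genes 0.004 to 1.11 lower on the log2 scale than in the other 3. Those 3 include replicate 3, so these deviations are not independent of it. Young replicate 2, with the second highest Nr1d1, had 75.4 CPM of Arntl, within the young range.

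To describe how the genes varied together among libraries of 1 group, group means were subtracted from log2 CPM and all 45 pairs were correlated over the 12 libraries. Of the 24 pairs that join a dawn-phase and an E-box-phase gene, 20 had a negative r, with a median of -0.47 and a range of -0.88 to 0.69. All 6 pairs of dawn-phase genes had a positive r (median 0.62). The 15 pairs of E-box-phase genes were mixed, with 7 positive and 8 negative (median -0.05). These pairs share libraries and genes and are not independent of each other. Some signs changed without the 2 libraries farthest from the median of the first gene. In the pairs named next, old vehicle replicate 3 was among those left out. In pairs with Clock as the first gene it was kept. Arntl with Cry2 went from -0.512 to 0.322, Cry1 with Cry2 from -0.571 to 0.164 and Cry1 with Nr1d1 from -0.677 to 0.207. Within the dawn phase, Arntl with Clock went from 0.357 to -0.059. Other pairs kept their sign, such as Arntl with Per3 (-0.74) and Npas2 with Per3 (-0.357).

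After adjustment over the 45 pairs, Npas2 and Cry1 was the pair with an adjusted p under 0.05 for Pearson's r (r 0.949, permutation p 0.000868, adjusted 0.0391, rho 0.853, adjusted 0.0277, exact two-sided test over all arrangements within groups). Its r was 0.883 without the 2 libraries farthest from the median of Npas2. By rho, Clock with Nr1d1 (rho -0.839, exact permutation p 0.000579, adjusted 0.0260; r -0.714, adjusted 0.0575) and Per3 with Nr1d1 (rho 0.867, p 0.0026, adjusted 0.0391; r 0.773, adjusted 0.150) also passed. For Clock with Nr1d1, r was -0.775 without young replicate 4 and D+Q replicate 4. That value still includes old vehicle replicate 3. For Per3 with Nr1d1, r was 0.779 without young replicate 3 and old vehicle replicate 3.

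Arntl with Per3 had an r of -0.883 (exact permutation p 0.00571, adjusted 0.0643; rho -0.846, adjusted 0.101), and -0.740 without the 2 farthest libraries. Arntl with Nr1d1, its direct repressor, had an r of -0.673 (exact permutation p 0.105, adjusted 0.278; rho -0.573, p 0.0989, adjusted 0.297). That relation rested on single libraries: r was 0.249 without the 2 farthest libraries, -0.064 without old vehicle replicate 3 and -0.908 without young replicate 2. Arntl with Per2 had an r of -0.155 (exact permutation p 0.568, adjusted 0.752; rho -0.203, p 0.515, adjusted 0.674), -0.258 without the 2 farthest libraries and 0.142 without old vehicle replicate 3. Without subtracting group means, group differences also enter (100000 permutations, adjusted p in brackets). Npas2 with Per2 then had r -0.801 (0.0481) and rho -0.93 (0.0027). Arntl with Per3 had r -0.812 (0.0279) and rho -0.476 (0.456). Per3 with Nr1d1 had r 0.707 (0.109) and rho 0.874 (0.00922). No other pair passed, and Npas2 with Cry1 had r 0.412 (0.399) and rho -0.357 (0.549).

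**Figure D5:**
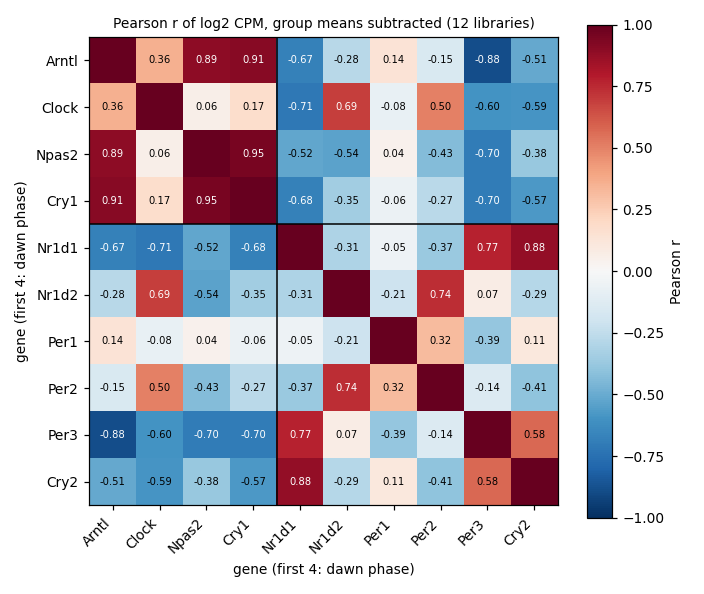
Pearson r of log2 CPM for each pair of clock genes over 12 libraries after subtracting group means, with the dawn-phase genes in the first 4 rows and columns. The upper left block is positive throughout (0.06 to 0.95), and 20 of the 24 pairs that join the phases are negative, from -0.88 for Arntl and Per3, and 4 are positive, up to 0.69 for Clock and Nr1d2. Some of these signs changed when old vehicle replicate 3 and another library were left out.

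Among 10879 named genes of sufficient level, those whose within-group pattern was most like Arntl were Heatr1 (r 0.911), Abra (0.890), Dnajc24 (0.885), Nfil3 (0.863) and Rrs1 (0.855). Without the 2 libraries farthest from the median of Arntl these were 0.403, 0.776, 0.359, 0.534 and 0.514. Those most like Per2 were Kctd12b (0.942), Ppap2a (0.931), Ppara (0.913), Fahd1 (0.910) and Tceal7 (0.906), and without its 2 farthest libraries 0.949, 0.869, 0.812, 0.815 and 0.852. All rest on 12 libraries and are descriptions.

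Other genes of the pathway were described from 5 lists of 46 genes, of which 45 were tested: output factors, ROR receptors with the paralogue Arntl2, kinases and ligases that modify clock proteins, cofactors, and clock-controlled genes of muscle. In old vehicle over young edgeR called 0 of the 45, with 2 at an unadjusted p under 0.05 (all tested genes, 16%), 1 called by DESeq2 (Myod1) and 0 by limma-voom. EdgeR called 0 in D+Q over old vehicle, with 0 at an unadjusted p under 0.05 and 0 by either other tool. It called 0 in D+Q over young, with 3 at an unadjusted p under 0.05 (all tested genes, 17.8%) and 0 by either other tool. List medians lay between -0.17 and 0.21 in old vehicle over young, between -0.03 and 0.04 in D+Q over old vehicle and between -0.16 and 0.19 in D+Q over young.

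The output factor Dbp averaged 10.6 ± 4.84 CPM in D+Q libraries, 24.6 ± 31.4 CPM in old vehicle libraries and 9.29 ± 3.12 CPM in young libraries (SD, n = 4). The old vehicle mean rests on replicate 3, given above. Hlf, a related D-box activator, averaged 10.1 ± 1.23 CPM after D+Q, 10.7 ± 1.44 CPM with vehicle and 12.8 ± 2.48 CPM in young libraries. Bhlhe40, an E-box repressor also known as DEC1, averaged 226 ± 47.6 CPM in D+Q libraries and 182 ± 31.0 CPM in old vehicle libraries (log2 fold change 0.31, unadjusted p 0.0899, edgeR adjusted p = 1).

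Among clock-controlled genes, Myod1, the myogenic factor, had 31.3 ± 10.5 CPM in old vehicle and 14.6 ± 4.78 CPM in young libraries (log2 fold change 1.10, edgeR adjusted p = 0.104). Tcap, the Z-disc protein telethonin, had 1260 ± 374 CPM in old vehicle and 834 ± 324 CPM in young libraries (0.59, adjusted p 0.320). Of the receptors that activate Arntl through the ROR element, Rora had 97.3 ± 8.35 CPM in old vehicle and 108 ± 32.1 CPM in young libraries (-0.15, adjusted p 0.751). Tipin, a partner of Timeless, had 12.9 ± 1.04 CPM in old vehicle and 16.3 ± 2.62 CPM in young libraries (-0.34, adjusted p 0.283). Csnk1e, a casein kinase that phosphorylates PER proteins, had 52.8 ± 4.83 CPM in D+Q and 43.4 ± 9.06 CPM in young libraries (0.28, adjusted p 0.306).

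Glucocorticoids and cAMP signalling induce Per1 in mouse tissues apart from the loop, so 17 glucocorticoid-responsive genes and 15 immediate early genes were also read. EdgeR called 0 of either list in any of the 3 comparisons. Of the glucocorticoid-responsive genes 14 were positive in D+Q over old vehicle and 3 negative (median 0.17), where 53% of all tested genes were positive. There 2, Klf15 and Fbxo32, had an unadjusted p under 0.05, as 2.17% of all tested genes did. In old vehicle over young 3 were positive and 14 negative (median -0.20), where 49% of all tested genes were positive. There 2 had an unadjusted p under 0.05, as 16% of all tested genes did. Both comparisons share the old vehicle libraries, so their opposite signs are not independent. DESeq2 and limma-voom called 0 in both comparisons. Medians of the immediate early genes were -0.02 in D+Q over old vehicle and -0.12 in old vehicle over young. At an unadjusted p under 0.05 were 0 and 2 of them in that order, beside the same shares of all tested genes. DESeq2 called 0 and 1 (Junb) in that order, and limma-voom 0 in both. In D+Q over young the medians were -0.03 for the glucocorticoid-responsive and -0.07 for the immediate early genes. Each list had 1 at an unadjusted p under 0.05 there, as 17.8% of all tested genes did. DESeq2 and limma-voom called 0 of either list in D+Q over young. One library stood apart in both lists. In young replicate 4 the glucocorticoid-responsive genes summed to 6320 CPM and the immediate early genes to 1400 CPM, against 2020 to 3050 and 298 to 464 CPM in the other young libraries, and it had the highest Per1 of its group (57.9 CPM). Young replicate 1 had a Per1 of 53.0 CPM with sums of 2200 and 464 CPM in that order. D+Q replicate 4 had the highest glucocorticoid-responsive sum of its group (3320 CPM). It also had the lowest immediate early sum (251 CPM) and the lowest Per1 (39.3 CPM) there. The part of these signals in the Per1 values was not tested.

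Other contents of the samples differed between the groups beside Per2 and Cry2, in lists that were chosen with earlier results of these data known. Of 10 genes that denervated muscle induces, 9 rose in old vehicle over young (median 1.99) and 5 rose in D+Q over young. EdgeR called 1.86% and 0.892% of all tested genes in those comparisons, in that order. In D+Q over old vehicle edgeR called 0 of the 10. All 10 were negative there (median -1.04), where 53% of all tested genes were positive. There 8 had an unadjusted p under 0.05, as 2.17% of all tested genes did, and DESeq2 called 2 and limma-voom 0. Of 8 macrophage markers 1, Cd68, rose in old vehicle over young (adjusted p = 0.0176). All 8 were negative in D+Q over old vehicle (median -0.16), where 53% of all tested genes were positive. EdgeR, DESeq2 and limma-voom called 0 of the 8 there. There 2, Cd68 and Adgre1, had an unadjusted p under 0.05 and groups that did not overlap. Each of these held for 2.17% of all tested genes. The 8 summed to between 58.8 and 70.6 CPM in D+Q libraries, between 63.7 and 95.3 CPM in old vehicle libraries and between 56.9 and 76.3 CPM in young libraries, and none was at 0 in all libraries. Of 4 markers of fibro-adipogenic progenitors 1, Cd34, fell in old vehicle (adjusted p = 0.0359) and in D+Q (0.0113) relative to young. Their sum ran from 488 to 683 CPM in D+Q libraries, from 542 to 724 CPM in old vehicle libraries and from 609 to 818 CPM in young libraries. Myh1, 1 of 9 muscle fibre markers, rose in old vehicle over young (adjusted p = 0.0114). Of 5 red cell genes, Hba-a2 and Hbb-bt rose in D+Q over young (adjusted p = 0.0433 and 0.0424), and the 5 summed to between 14.5 and 85.9 CPM in D+Q libraries, between 8.64 and 46.5 CPM in old vehicle libraries and between 4.59 and 14.5 CPM in young libraries. All 5 were also positive in old vehicle over young (median 1.52) and in D+Q over old vehicle (median 1.32). In those comparisons 49% and 53% of all tested genes were positive, in that order. EdgeR and limma-voom called 0 in both, and DESeq2 called 1 (Hbb-bt) in old vehicle over young and 0 in D+Q over old vehicle. Each had 4 at an unadjusted p under 0.05, where the shares of all tested genes were 16% and 2.17% in that order. Of 29 tested markers of neutrophils, T and B cells, adipocytes, Schwann cells, endothelium, pericytes, tenocytes and satellite cells, edgeR called 0 in any of the 3 comparisons. At an unadjusted p under 0.05 were 6 in old vehicle over young, 2 in D+Q over old vehicle and 11 in D+Q over young, where the shares of all tested genes were 16%, 2.17% and 17.8%. DESeq2 called 3, 0 and 3 of the 29, and limma-voom 0. The 6 neutrophil markers summed to 21.8 CPM in D+Q replicate 4 and to between 0.945 and 1.81 CPM in the other D+Q libraries. That library also had the lowest Per1 (39.3 CPM) and the highest Clock (59.8 CPM) of its group. In young replicate 2 the adipocyte markers summed to 1760 CPM and the Schwann cell markers to 307 CPM. The other young libraries had 388 to 969 and 134 to 154 CPM in that order. The part of these differences in the clock gene results was not tested.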

How the data were processed

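Per the labels' protocols, quadriceps RNA went into stranded mRNA libraries. Per the submitters' processing notes, STAR 2.6.1c, Subread and featureCounts 1.5.1 were used with mm10. Role of each tool, strand setting, filters and annotation: not given in the sources used here. Every test used the count of reads per gene, a whole number, that the authors deposited. They also deposited RPKM values, used only to check the counts: the ratio of counts over length to RPKM had a coefficient of variation of 0.0736% or less within a library. Between libraries of 1 group chi-square over genes was 18.4 to 282 per degree of freedom, so all were treated as distinct.

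EdgeR 4.0.16 in R 4.3.3 kept genes by filterByExpr (minimum count 10, total 15), scaled libraries by TMM and fitted 3 group means to all 12 libraries with the quasi-likelihood method, adjusted over 16146 genes at 0.05. The standard error is the log2 fold change over the square root of F. CPM use TMM-scaled totals, and log2 CPM a prior count of 2. Correlations used Python 3.11.15 and SciPy 1.17.1. Settings tried were DESeq2 1.42.0, limma-voom (limma 3.58.1), other scalings, filters and thresholds, robust shrinkage, 2-group fits, a replicate block and leaving out each library. A fit without young replicates 3 and 4 was chosen after seeing the data.

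Members and lists were chosen with earlier results of these data known. Named genes were the 10 members, up to 4 called genes of each list by adjusted p or, where none was called, the 2 with the smallest p, and the 5 genes most like each of Arntl and Per2, predicted genes left out. Not all list genes so named are printed.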

Additional observations from a re-analysis of the deposited data

Results flagged for a closer look

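Each clock gene's highest and lowest library was compared with the other 3 of its group by the gap to the nearest library over the group's range, against Dixon's 95% critical value. Of 30 groups of 4 libraries 5 passed it. Chance flags about 1 in 20 where values are normally distributed. These were CPM on a linear scale, and the 30 groups share libraries, so that rate need not hold here. Old vehicle replicate 3 gave 3 of the 5: it was far below its group in Arntl (30.4 CPM) and far above it in Nr1d1 (229 CPM) and Per3 (34.2 CPM). Per2 in D+Q replicate 2 (9.12 CPM) lay far above the other D+Q libraries. Cry2 in young replicate 2 (49.0 CPM) lay far above the other young libraries.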

How the results depend on the processing

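Per2 and Cry2 kept a positive log2 fold change in old vehicle over young in all 19 other fits, and edgeR or another tool called Per2 in 14 and Cry2 in 11 of them. The members called there numbered 3 with DESeq2 (Npas2 added), 1 in the 2-group fit (Per2), 1 without young replicates 3 and 4 (Per2) and 0 with a replicate block (Per2 adjusted p 0.0878, Cry2 0.143). They numbered 0 to 2 when 1 library was left out. In D+Q over young 1 member, Cry2, was called at a threshold of 0.1, with DESeq2, with relative log expression scaling and with library totals alone, and 0 to 1 when 1 library was left out. No member was called in D+Q over old vehicle by any setting run. Over all genes, old vehicle over young gave 566 calls at a threshold of 0.1, 778 with DESeq2, 188 in the 2-group fit, 141 with a replicate block, 80 without young replicates 3 and 4, and 146 to 1022 when 1 library was left out. D+Q over young gave 357, 610, 25, 35 and 15 calls under the same settings in that order, and 44 to 1935 when 1 library was left out. D+Q over old vehicle gave 11 with DESeq2.

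Replicate numbers did not pair the libraries: deviations of same-numbered libraries correlated at -0.401 to 0.41, and 0 of 12 libraries correlated best with its own number in both other groups. Uncalled members changed sign under some settings, and the cause was not tested. Per3 in D+Q over old vehicle was 0.03 with limma-voom and 0.034 with a replicate block, Clock was -0.004 with a replicate block, and Cry1 and Cry2 were -0.052 and -0.043 with library totals alone and -0.003 each without the filter on low counts. Nr1d1 in D+Q over young was 0.092 with limma-voom and 0.061 with a replicate block. Without young replicates 3 and 4, Clock and Nr1d2 were 0.027 and 0.339 in old vehicle over young, and 0.09 and 0.229 in D+Q over young.

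With 1 library left out, log2 fold changes in old vehicle over young ran from -0.507 to 0.133 for Per1, -1.126 to 0.315 for Nr1d1, -0.301 to 0.027 for Nr1d2 and -0.173 to 0.543 for Per3. For D+Q over old vehicle they ran from -0.188 to 0.193 for Clock, -0.239 to 0.347 for Per3, -0.176 to 0.11 for Cry1, -0.063 to 0.115 for Cry2, -0.078 to 1.08 for Nr1d1 and -0.24 to 0.013 for Nr1d2. For D+Q over young they ran from -0.14 to 0.012 for Arntl, -0.485 to 0.01 for Clock, -0.006 to 0.468 for Per3 and -0.297 to 0.488 for Nr1d1. Within-group r ran from -0.908 to -0.064 for Arntl with Nr1d1 and from -0.363 to 0.142 for Arntl with Per2. With 4 libraries a group, 95% intervals spanned over 2 log2 units for Nr1d1.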
